A study of Homo sapiens with 13 samples.

Results

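The nuclear factor I (NFI) genes NFIA, NFIB, NFIC and NFIX were examined in 2 atlases of accessible chromatin from small cell lung cancer (SCLC) cell lines, H82 (SCLC-N, the NEUROD1 subtype) and H146 (SCLC-A). The members are all 4 genes of the family among 20033 protein-coding genes of GENCODE v44 (hg38), taken by name. The assay was ATAC-seq, which uses a transposase, Tn5, to insert sequencing adapters into open DNA. The libraries were 4 of untreated H146, 3 of H146 after 100 nM FHD-286 for 14 days, 3 of untreated H82 and 3 of H82 after the same treatment. FHD-286 is an allosteric inhibitor of the ATPases SMARCA4 and SMARCA2. Both lines are established human lines grown in culture, so each subtype is represented by 1 line.

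The values used here are the starts and ends of regions that were pooled, by line, over untreated and treated libraries. There is therefore 1 value per line and no replicate spread, the effect of FHD-286 cannot be read, and no difference between the lines was tested. H146 and H82 also differ in the number of libraries behind each atlas, in their depth (unknown) and possibly in DNA copies, and none of these can be told apart from accessibility here. The H82 atlas held 206927 regions on 5.41% of the genome and the H146 atlas 174093 regions on 4.49%, which puts the whole-atlas log2 ratio of covered share, H82 over H146, at 0.27. A region was within 1 kb of the start of NEUROD1 in H82 alone, and of the neuroendocrine genes INSM1, CHGA and SYP in both lines. The SCLC-A label of H146 was not checked against a marker of its own. Regions were also within 1 kb of the starts of POU2F3, YAP1 and REST, markers of low neuroendocrine states, in both lines. Within 10 kb of the start, SYP was more covered in H82 (32.2% against 19.2% in H146), as was NEUROD1 (50.6% against 19.0%), and POU2F3 was more covered in H146 (43.0% against 18.8% in H82). The other markers differed by less than 1.5-fold: INSM1 (56.6% in H82 and 59.6% in H146), CHGA (21.1% and 23.3%), YAP1 (9.98% and 7.98%) and REST (14.0% and 13.2%). Of 18869 protein-coding genes, 24.9% were 1.5-fold or more covered in H82 at this distance and 8.72% in H146.

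NFI proteins are transcription factors that share a DNA-binding domain at their N-terminus and bind, as dimers, a palindrome built of the word TTGGC and its reverse complement. The family acts in the development of the brain, lung, muscle and teeth. NFIA is best known for the switch from neurons to glia, NFIC for the growth of tooth roots, and NFIX for neural stem cells and fetal muscle. NFIB matures the embryonic lung and is the family member tied to SCLC, where its gene is amplified in mouse models and in some human tumours and where it has been linked to wider distal chromatin opening and metastasis.

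**Figure D1:**
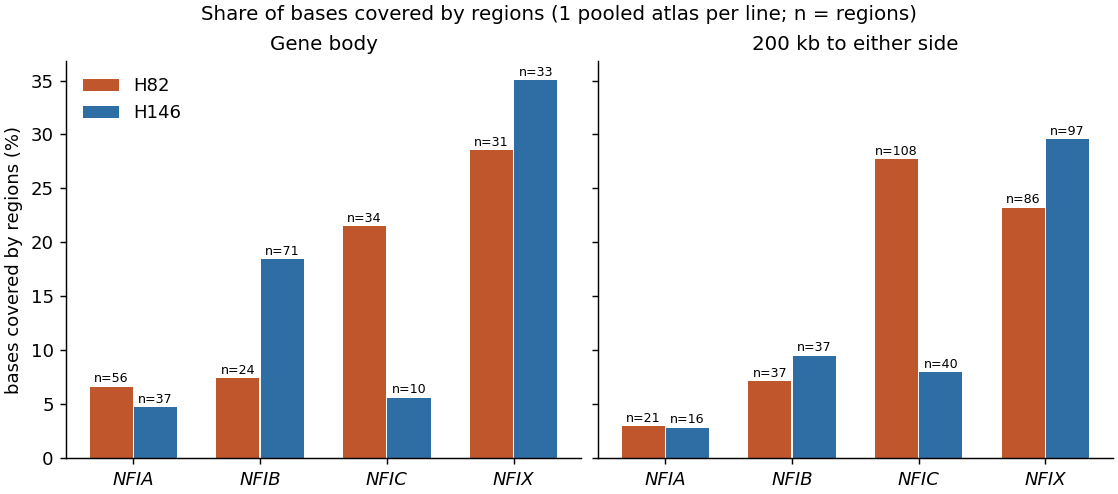
Share of bases covered by regions (y axis, %) in the gene body and in the 200 kb to either side of each gene, for H82 and H146. Bars are the value of the 1 pooled atlas of each line, without error bars, and the numbers above them are regions. NFIB was more covered in H146 and NFIC in H82, and NFIA and NFIX differed by less than 1.5-fold.

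The 4 genes did not share a direction. Over the gene body, NFIB was 2.49-fold more covered in H146 and NFIC 3.85-fold more covered in H82, while NFIA leaned to H82 by 1.40-fold and NFIX to H146 by 1.23-fold. A difference of 1.5-fold or more towards H82 was found for 29.5% of the 18507 protein-coding genes with any covered base in their body, and one of that size towards H146 for 10.9%. Among the 3659 such genes of 100 kb or more, a class that holds all 4 members, these shares were 31% and 8.83%. The family, with 1 member past 1.5-fold in each direction, had a median log2 ratio of 0.10. That of all genes was 0.08, and that of genes of 100 kb or more was 0.17. Being a median of 4 values, the family's lies between the ratios of NFIA (0.49) and NFIX (-0.30). For the 200 kb to either side, the background was 28.6% of 20000 genes towards H82 and 3% towards H146. NFIC was past 1.5-fold there towards H82, and no member was towards H146. The flank calls depended on the setting: with 100 kb to either side the log2 ratio was 0.82 for NFIA and -0.80 for NFIB, and taken relative to the whole atlases it was -0.68 for NFIB and -0.62 for NFIX, all past 1.5-fold.

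**Figure D2:**
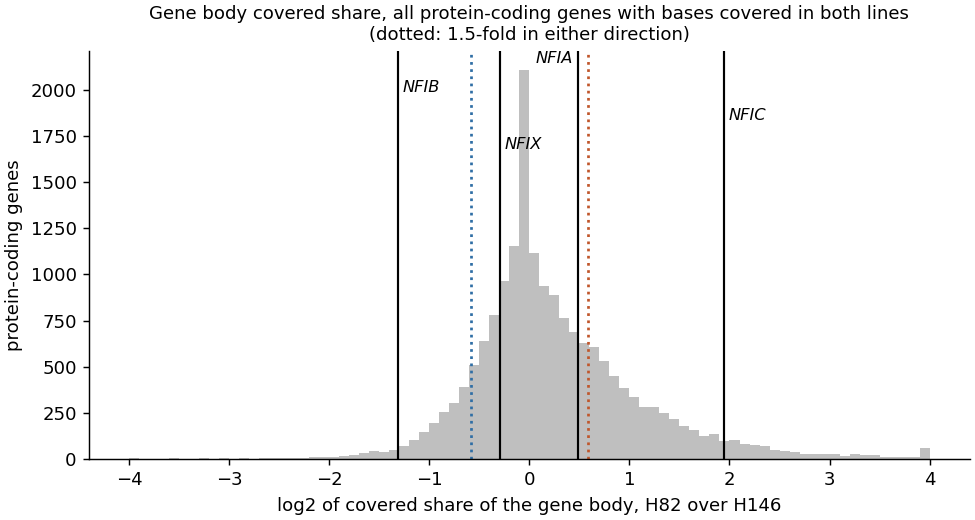
Number of protein-coding genes (y axis) by the log2 ratio of gene body covered share, H82 over H146 (x axis), for genes covered in both lines. Ratios past 4 in either direction are drawn in the end bins. Black lines mark the 4 NFI genes, of which NFIB at -1.32 and NFIC at 1.95 lie outside the dotted lines at 1.5-fold.

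Most annotated starts of the family lay near a region in both lines. The 4 genes have 74 distinct transcription start sites (TSSs), and 51 of them had a region within 1 kb in both lines, 5 in H82 alone, 4 in H146 alone and 14 in neither. Over the 146431 distinct TSSs of all protein-coding genes, 63.1% had a region in both lines, 6.16% in H82 alone and 2.7% in H146 alone. A start is called open here when a region lay within 1 kb, whether or not the region covered the start itself. The starts open in H82 alone belonged to NFIA (4 of its 28) and NFIC (1 of its 10). All starts open in H146 alone belonged to NFIB (4 of its 21). Among these starts open in 1 line alone, those of NFIA-209, NFIC-211 and NFIB-218 had no region over the 200 bases before them. NFIX had no start that separated the lines, with 13 of 15 open in both and 2 in neither. TSSs of the same gene often lie within the same region, so these counts are not independent values.

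**Figure D3:**
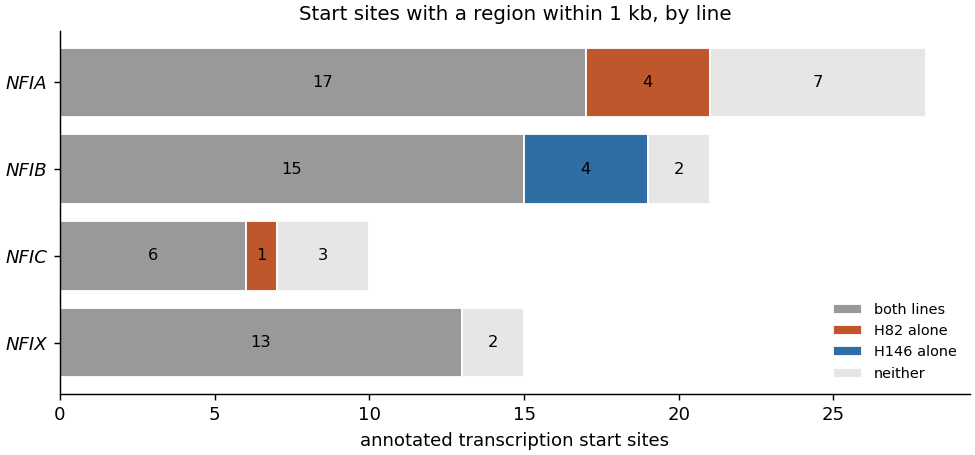
Annotated start sites of each NFI gene (x axis, number of distinct TSSs) by whether a region lay within 1 kb in both lines, in H82 alone, in H146 alone or in neither. The line-specific sites are H82 alone at NFIA (4) and NFIC (1) and H146 alone at NFIB (4).

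NFIB (ENSG00000147862.18) is on the minus strand of chromosome 9, at chr9:14081843-14398983, and its 317 kb held 24 regions in H82 and 71 in H146. The regions covered 7.40% of the body in H82 and 18.4% in H146. The ratio of region numbers, H146 over H82, was 2.96, with an exact binomial (Clopper-Pearson) 95% interval of 1.84 to 4.92 that covers counting error only. Such an interval takes regions as independent and is not a test between the lines. Over the whole atlases the ratio of region numbers, H82 over H146, was 1.19. The log2 ratio of covered share was -1.32, and 495 of the 18507 genes, 33 of them among the 3659 long genes, had a lower one. The covered share in H146 was above that of 97.7% of the long genes, against 77.1% for H82.

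The promoter of the canonical NFIB transcript was open in both lines. Its TSS at position 14314141 lay in a region of 4372 bp in H82 and of 5161 bp in H146, which was the widest of each line at the locus. The group of starts about 8 kb upstream, at 14321948 to 14322338, had regions of 2547 bp and 3278 bp, and the group at 14180792 to 14180802 had regions of 1613 bp and 2159 bp. At each of these sites the H146 region was the wider one. At the most downstream starts, 14096613 to 14096650, H82 had a region of 2279 bp and H146 had regions of 444 bp and 1534 bp. The 2 most upstream starts, at 14398711 and 14398983, had no region within 1 kb in either line. A further NFIB start in the RefSeq table (GRCh38.p14), at 14532077 in the upstream flank and outside the GENCODE gene, lay in regions of 2800 bp in H146 and 2342 bp in H82.

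The NFIB starts open in H146 alone lie downstream of the canonical one. Transcripts NFIB-215, NFIB-209 and NFIB-219 begin between 14307928 and 14308073, where H146 had regions of 660 bp and 716 bp, and NFIB-218 begins at 14300231, where a region of 200 bp reached into the outer part of the window. H82 had no region within 1 kb of any of them. The 200 bases before the NFIB-215 start (hg38, chr9:14308074-14308273, minus strand), all of which lay inside an H146 region, are shown as a start open in H146 alone, and they hold no annotated UTR. None of 5 words is in them: the NFI word TTGGC, the FOXA word TGTTTAC, the OTX2 word TAATCC and the E-boxes CAGCTG and CAGATG, searched on both strands and, where present in a sequence, printed in capitals. Of 20032 promoters of the same length, 36.4% held TTGGC, 1.83% TGTTTAC, 5.38% TAATCC, 10.9% CAGCTG and 8.65% CAGATG.
NFIB-215: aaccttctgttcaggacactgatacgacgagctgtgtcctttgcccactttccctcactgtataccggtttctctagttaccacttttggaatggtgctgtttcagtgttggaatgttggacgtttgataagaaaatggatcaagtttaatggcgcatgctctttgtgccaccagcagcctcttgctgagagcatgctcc

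Most of the NFIB body regions found in H146 alone were intronic. A region that overlaps the other line's atlas by at least 1 bp is called shared here, and the others line-only. In the gene body 49 of the 71 H146 regions were H146-only, 45 of them intronic, and 3 of the 24 H82 regions were H82-only. Line-only body regions were mostly intronic elsewhere too, with 31 of 35 H82-only ones at NFIA and 22 of 26 at NFIC. Across the whole atlases 29.5% of H146 regions and 40.7% of H82 regions were line-only. The long intron 2 of the canonical transcript (127 kb) held 40 regions in H146, covering 20.9% of it, and 8 in H82, covering 3.53%. In intron 3, H146 covered 13.7% and H82 5.24%, and in intron 6 13.6% and 3.19%. The widest H146-only region of the locus was in intron 2, at chr9:14204602-14208029 (3428 bp), 108 kb from the canonical TSS. The shared regions of the body were wider in H146 too, with a median of 1430 bp against 644 bp in H82. Cut into 25-kb windows, the body was more covered by H146 in 11 of 13, by H82 in 1, and by neither in the outermost upstream window.

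Of the bases covered in H82 in the NFIB body, 89.8% were also covered in H146, whereas 36.0% of those covered in H146 were covered in H82. The H82 regions thus lay largely within those of H146. In the flanks both lines had 37 regions, which covered 7.14% of the bases for H82 and 9.50% for H146. The widest H82-only region of the locus lay upstream of the gene, at chr9:14452582-14454004 (1423 bp). No other protein-coding gene reaches into these flanks.

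**Figure D4:**
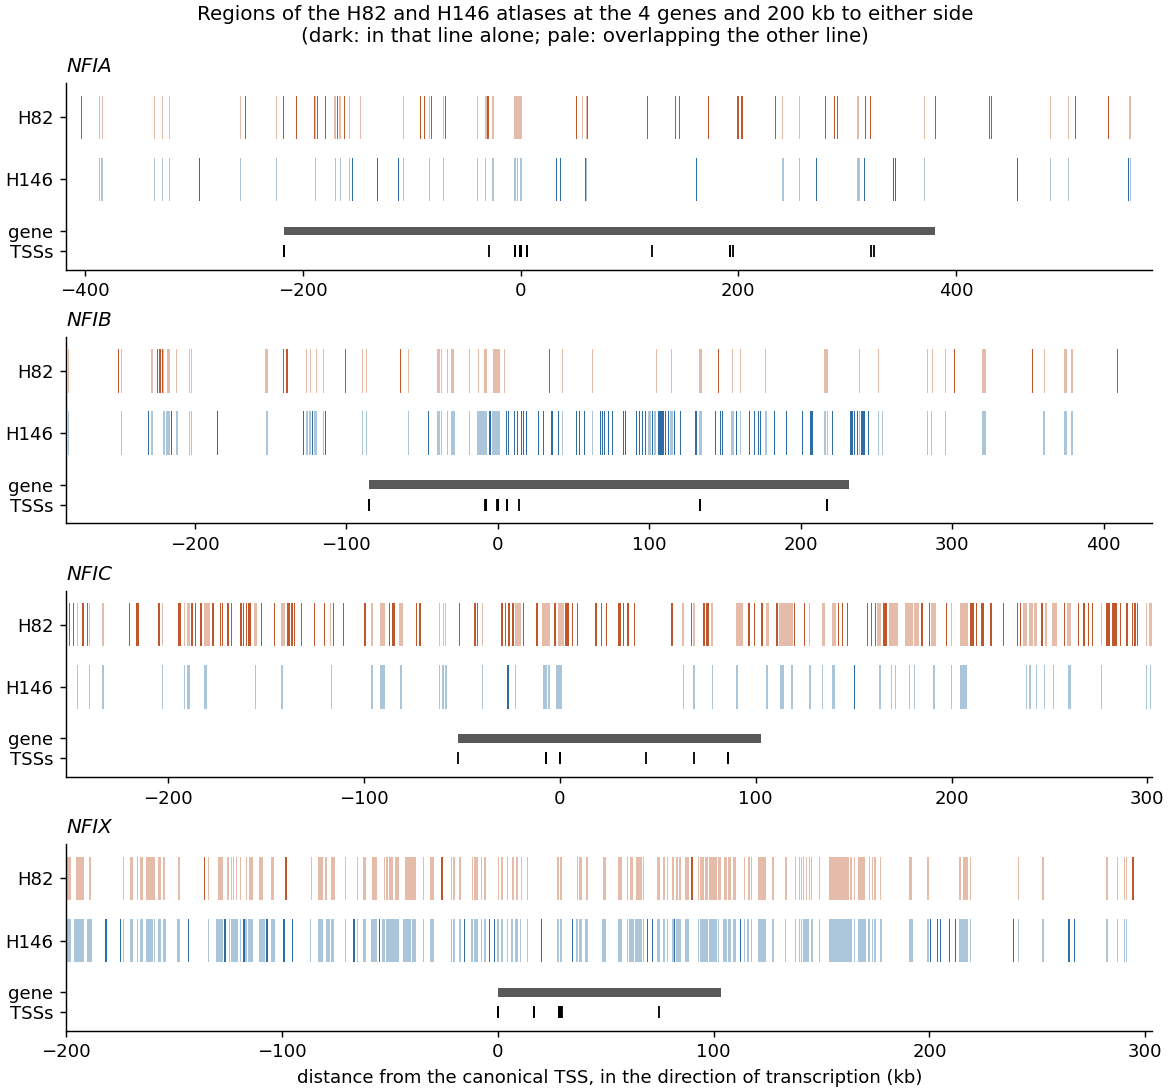
Regions of H82 and H146 along each NFI gene and 200 kb to either side (x axis, kb from the canonical TSS in the direction of transcription), with line-only regions dark, shared regions pale, and TSSs as ticks. Regions narrower than 0.6 kb are drawn 0.6 kb wide. The dark H146 regions run through the NFIB gene body (49 of 71), and the dark H82 regions run through NFIC (26 of 34) and on into its flanks.

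NFIC (ENSG00000141905.19, chr19:3314403-3469217, plus strand, 155 kb) showed the opposite. Its body held 34 regions in H82 and 10 in H146, which covered 21.5% and 5.58%. The ratio of region numbers, H82 over H146, was 3.40 (Clopper-Pearson 95% interval 1.64 to 7.72, counting error only). The log2 ratio of covered share was 1.95, and 1412 of the 18507 genes had a higher one. In H82, 26 of the 34 regions were H82-only, of which 22 were intronic, and in H146 1 of 10 was H146-only. All 6 windows of 25 kb were more covered in H82.

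The main NFIC promoters were open in both lines. The canonical TSS at 3366583 lay in a region of 3126 bp (H82) and 2727 bp (H146), and the starts at 3359563 to 3359683 lay in regions of 3852 bp and 2045 bp. The most upstream start, of NFIC-211 at 3314403, had an H82 region of 430 bp within 1 kb and none in H146. Inside the gene, intron 1 was covered to 30.8% in H82 and 5.14% in H146. Intron 2 (42.9 kb) held 8 regions in H82, covering 9.35%, and none in H146. Intron 10 was covered to 62.8% in H82 and 3.52% in H146.

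The H82 lead at NFIC was not confined to the gene. The flanks held 108 regions in H82 and 40 in H146, covering 27.7% and 7.99%, with a log2 ratio of 1.79. Of the H82 regions in the flanks 71 were H82-only, against 1 of the 40 in H146. The 16 protein-coding genes that reach into the flanks were all more covered in H82, by any amount, against 56.2% of the 18507 genes. The starts of 3 of them had a region in H82 alone, namely S1PR4, a sphingosine 1-phosphate receptor of lymphocytes, GIPC3, a gene of hearing, and SMIM44. The start of GNA15, a G protein alpha subunit of blood cells, had none in either line, and the other 12 had one in both. For all distinct TSSs of protein-coding genes, which can count a gene more than once, the shares were 6.16% in H82 alone and 63.1% in both. The widest H82-only region of the locus lay over PIP5K1C, a lipid kinase gene, at chr19:3648355-3651011 (2657 bp). Further out the log2 ratio was 1.52 at 200 kb to 1 Mb from NFIC and 1.37 at 1 to 5 Mb, against 0.28 over the whole of chromosome 19. The chromosome end cuts the upstream side of the 1 to 5 Mb, which leaves 6314 kb against 8000 kb for the other members. Taken relative to the 1 to 5 Mb to either side, the ratio of the NFIC body was 0.58, just under 1.5-fold. Differences in DNA copies, which these files do not give, cannot be told apart from accessibility over such a stretch.

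**Figure D5:**
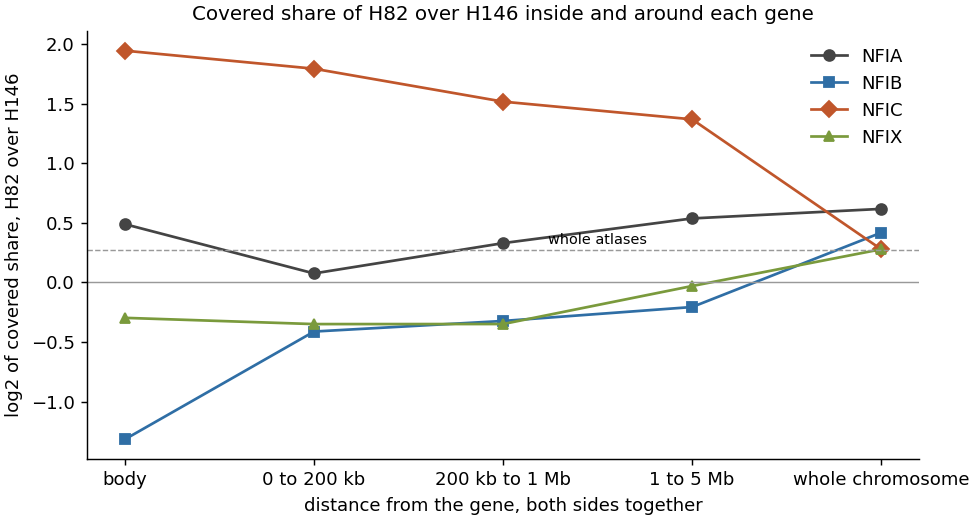
Log2 ratio of covered share, H82 over H146 (y axis), for the body of each NFI gene, for the bases at growing distance to both sides and for its whole chromosome (x axis). Points are the values of the pooled atlases, and the dashed line is the whole-atlas ratio of 0.27. NFIC stays between 1.37 and 1.95 out to 5 Mb, whereas NFIB goes from -1.32 in the body to -0.41 in the 200 kb to either side. The chromosome end cuts the upstream side of the 1 to 5 Mb around NFIC.

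The lead of H146 at NFIB was narrower. The log2 ratio went from -1.32 in the body to -0.41 in the flanks (-0.80 within 100 kb), -0.32 at 200 kb to 1 Mb and -0.21 at 1 to 5 Mb, and chromosome 9 as a whole was more covered in H82, at 0.42. Relative to its own 1 to 5 Mb, the NFIB body was at -1.11. Around NFIA the ratios were 0.49 in the body, 0.08 in the flanks, 0.33, 0.54 and, for chromosome 1, 0.62. The NFIA body thus lay a little below the 1 to 5 Mb around it, at -0.05 relative to them. Around NFIX they were -0.30, -0.35, -0.35, -0.03 and, for chromosome 19, 0.28.

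NFIA (ENSG00000162599.18, chr1:60865259-61462788, plus strand) is the longest member at 598 kb. It held 56 regions in H82 and 37 in H146, covering 6.61% and 4.71%. The ratio of region numbers, H82 over H146, was 1.51 (interval 0.98 to 2.36, counting error only), against 1.19 over the whole atlases. In the body, 35 of the 56 H82 regions were H82-only and 15 of the 37 H146 regions were H146-only. Of the bases covered in either line, 33.4% were covered in both, against 34.6% at NFIB, 21.3% at NFIC and 71.2% at NFIX. By 25-kb windows, 14 of 24 were more covered in H82, 8 in H146 and 2 equally.

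The canonical NFIA start at 61082561 and the 13 other TSSs of its group, which reach from 61081767 to 61082754, were open in both lines, with a region of 2514 bp (H82) and 1955 bp (H146) over the canonical one. The H146 region began at 61081937, downstream of the starts of NFIA-210 and NFIA-205, and so did not cover these. The group of 3 starts at 61077274 to 61077386 had an H82 region of 4361 bp, the widest of H82 at the locus, and an H146 region of 1666 bp. The starts open in H82 alone are those of NFIA-206 and NFIA-221 at the 5′ end of the gene (659 bp), NFIA-209 at 61053830 (200 bp) and NFIA-201 at 61404076 (846 bp). The first of these lie 217 kb upstream of the canonical TSS. The part of the gene before the canonical TSS held 32 regions in H82 and 18 in H146, covering 10.9% and 7.05% of it, whereas the 189 kb of intron 2 held 11 and 10. Intron 6 (24.0 kb) held 3 regions in H82, covering 8.53%, and none in H146.

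The 200 bases before the starts of NFIA-206 (chr1:60865059-60865258) and NFIA-201 (chr1:61403876-61404075), both on the plus strand of hg38, are shown because an H82 region covered each in full and no H146 region reached it. Beside them stands an H82-only region at chr1:61013285-61013536 (252 bp, plus strand). Its centre lies in the gene body at -69.2 kb from the canonical TSS, and of the 7 H82-only body regions of NFIA no wider than 300 bp it is the wider of the 2 that hold 3 matches to the 5 words, the most found. Capitals mark the words. NFIA-206 holds CAGATG, written as its reverse complement, NFIA-201 holds none, and the 252-bp region holds TTGGC and CAGATG, both as reverse complements, and CAGCTG.
NFIA-206: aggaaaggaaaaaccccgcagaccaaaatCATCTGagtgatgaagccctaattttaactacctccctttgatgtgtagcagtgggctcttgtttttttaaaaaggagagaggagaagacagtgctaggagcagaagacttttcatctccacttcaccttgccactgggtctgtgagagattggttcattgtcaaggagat
NFIA-201: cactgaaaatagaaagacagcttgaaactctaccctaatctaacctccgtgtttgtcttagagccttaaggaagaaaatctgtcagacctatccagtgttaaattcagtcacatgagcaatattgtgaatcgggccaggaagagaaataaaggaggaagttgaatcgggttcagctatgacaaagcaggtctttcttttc
NFIA H82-only region: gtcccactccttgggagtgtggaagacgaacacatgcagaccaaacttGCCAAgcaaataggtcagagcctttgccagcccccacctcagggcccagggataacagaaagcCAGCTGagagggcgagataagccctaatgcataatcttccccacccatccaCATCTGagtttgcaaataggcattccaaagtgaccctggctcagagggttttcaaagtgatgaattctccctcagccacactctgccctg

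The widest H82-only region at NFIA was in intron 3 of the canonical transcript, at chr1:61281007-61282831 (1825 bp), and the widest H146-only region lay before the canonical TSS, at chr1:60970003-60971097 (1095 bp). The flanks held 21 regions in H82 and 16 in H146, covering 2.97% and 2.82%, and no other protein-coding gene reaches into them.

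NFIX (ENSG00000008441.19, chr19:12995475-13098796, plus strand) is the shortest member at 103 kb and the one most covered in both lines. Its body held 31 regions in H82 and 33 in H146, covering 28.5% and 35.1%, and the ratio of region numbers, H82 over H146, was 0.94 (interval 0.56 to 1.58). These shares were above those of 98.7% of the long genes in H82 and 99.5% in H146. The H82-only regions of the body numbered 1 of 31 and the H146-only regions 5 of 33, all intronic, so the difference was mainly one of width. The shared regions had a median of 1034 bp in H146 and 818 bp in H82, and all 4 windows of 25 kb were more covered in H146.

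At the canonical NFIX start, 12995475, the region was 966 bp wide in H146 and 835 bp in H82. The largest group, 10 starts from 13023991 to 13025176, had a pair of regions in each line, of 225 bp and 686 bp in H82 and of 256 bp and 707 bp for H146. The start at 13070003 had a region of 1564 bp in H146 and 1243 bp in H82. The flanks were covered to 23.2% in H82 and 29.6% in H146. Of the 21 protein-coding genes that reach into them, 16 were more covered in H146, 3 in H82 and 2 equally. Of the 18507 genes, 56.2% were more covered in H82. All 21 neighbours had a region at their start in both lines, against 63.1% of all distinct TSSs, which can count a gene more than once. The widest region near NFIX in H82, 9898 bp, lay over HOOK2, JUNB and PRDX2, and the widest in H146, 10673 bp, over IER2 and STX10. JUNB and IER2 are immediate early genes.

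Ordered by covered share of the body, the H82 atlas ran NFIX 28.5%, NFIC 21.5%, NFIB 7.40% and NFIA 6.61%, and the H146 atlas NFIX 35.1%, NFIB 18.4%, NFIC 5.58% and NFIA 4.71%. NFIX led and NFIA came last in both lines, while NFIB and NFIC changed places. With no replicate, whether neighbours in these orders differ beyond a spread cannot be said. The protein-coding genes nearest to each member in the covered shares of body and flanks in both lines (4 values per gene, Euclidean distance on the log2 scale) were EFHB and SDCCAG8 for NFIA, ODF1 and KCNC1 for NFIB, NADK and VDAC1 for NFIC, and FBXL19 and TNPO2 for NFIX. TNPO2 lies 271 kb from NFIX, so the pair shares part of its flanks.

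A list of genes known to act with or under NFI factors was read in the same way. Of the 11 genes (SOX9, HES1, GFAP, FABP7, APCDD1, MMD2, EZH2, GABRA6, CNTN2, FOXA1 and NFATC4), 10 had a region within 1 kb of the start in both lines. For all distinct TSSs of protein-coding genes, which can count a gene more than once, that share was 63.1%. The exception in the list was GFAP, an intermediate filament gene of astrocytes, whose start had a region in H146 alone. Within 10 kb of the start, 2 of the 11 (18.2%) were 1.5-fold or more covered in H82 and 0 in H146, against 24.9% and 8.72% of 18869 protein-coding genes, so the list lay near the background in both directions. The 2 genes more covered in H82 were CNTN2, an adhesion gene of axons (43.1% covered in H82 and 15.8% in H146) and GFAP (41.5% and 26.5%). The median log2 ratio of the list was -0.0040.

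The NFI palindrome, TTGGC followed after 5 bases of any kind by GCCAA, was rare in both atlases and absent, as this word, from every region of both lines at the 4 genes and their flanks, 394 in H82 and 340 in H146. The palindrome was in 0.160% of all H82 regions and 0.168% of all H146 regions, so its absence here is no trait of the members. Genome-wide it occurred 95 times in H82-only regions and 58 times in H146-only regions, or 2.14 and 3.04 times per Mb, a log2 ratio of -0.51. The interval from counting error alone was -0.99 to -0.0083. The share of line-only regions that held the palindrome was the same in both lines, at 0.113%. It was denser in H146-only regions on 13 of 23 chromosomes (1 to 22 and X) and in H82-only regions on 9. A closely related word, TGGCA followed after 3 free bases by TGCCA and also absent from the regions at the members, occurred 2.77 and 4.97 times per Mb. This word was in 0.255% of all H82 regions and 0.296% of all H146 regions. The density of the arm TTGGC alone was 2.11 per kb for H146-only regions against 2.05 per kb for H82-only ones. Around the members it lay in 101 of 160 H82-only regions (63.1%) and in 61 of 110 H146-only regions (55.5%), against 57.2% and 49.6% of all line-only regions. A control word with each arm of the palindrome reversed, which contains CG, matched 2 times in H82-only and 0 times in H146-only regions and gave no ratio. A match is a run of letters and not a bound site.

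Words of other factors were counted in the line-only regions at the members too, as a description. The OTX2 word TAATCC was in 21 of 44 H82-only regions at NFIA and its flanks and in 1 of 20 H146-only regions, against 44.1% of the H82-only regions genome-wide and 14.5% of the H146-only ones. At NFIB it was in 13 of the 61 H146-only regions and 7 of the 14 H82-only ones. At NFIC it was in 16 of 97 H82-only regions (16.5%), well below the 44.1% genome-wide, and in 0 of 2 H146-only ones. At NFIX it was in 3 of 5 H82-only regions and 5 of 27 H146-only ones. The FOXA word TGTTTAC was in 4 of the 61 H146-only regions at NFIB, against 10.8% of all H146-only regions. It was in 3 of 20 at NFIA, 1 of 2 at NFIC and 0 of 27 at NFIX. Wider regions hold more of any word, and the line-only regions had median widths of 315 bp for H146 and 377 bp for H82 across the atlases. Base composition was not matched either. The H82-only regions at NFIC had a median GC content of 61.8%, against 48.2% for all H82-only regions, and its part in the word counts was not tested.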

How the data were processed

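ATAC-seq regions of H82 and H146 cells were analysed. Per the submitters' processing notes and methods, the authors trimmed reads with Trim Galore 0.4.4, aligned them with Bowtie2 2.3.4 to hg38, removed duplicates with Picard, called regions per sample with MACS2, removed blacklisted regions, and merged the regions of each line within 500 bp. The deposited files hold only region starts and ends in bp, with no score, count or sample. Since a call in any library of the line is enough, treated libraries included, more libraries or deeper ones give more regions. The H146 libraries were sequenced in batches that the labels do not assign.

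Overlaps and covered bases were computed in Python 3.11.15 (numpy 2.4.6, pandas 2.3.3) with GENCODE v44, on 24 chromosomes and excluding 1 mitochondrial region per line, and sequences were read with pysam 0.24.0. Interval arithmetic was tested on simulated data. Member genes, gene lists, words and thresholds were chosen with earlier results of these data known. Some genes of the marker and NFI-linked lists are not reported here. Regions named are the widest and widest line-only of each line at each gene. Neighbours were named where their start had a region in 1 line alone, and listed genes also at 1.5-fold or more. GNA15, the class of genes of 100 kb or more, the word TGGCA with TGCCA, the distances beyond the flanks and the 252-bp sequence were chosen after values were seen.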

Additional observations from a re-analysis of the deposited data

How the results depend on the processing

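Of 77 alternative settings for 13 results, 73 left the value within its counting interval or, for counts, within 1.5 times, none turned a member past 1.5-fold the other way, and 4 moved. That interval comes from numbers of regions or matches, so a ratio inside it can still change much. Some settings could not move a value. The span of the longest protein-coding transcript left all 4 body ratios as they were, and cutting the H82 atlas cannot alter the H146 starts. The count of 73 is thus no measure of stability. The NFIC body ratio, 1.95, was 0.58 relative to the 1 to 5 Mb around it, a setting chosen after seeing the data. The 1.5-fold line was crossed in 5 body or flank settings, that one and 4 others that stayed within their wide counting intervals: flanks of 100 kb (NFIA 0.82 from 0.08, NFIB -0.80 from -0.41) and flanks relative to the whole atlases (NFIB -0.68, NFIX -0.62 from -0.35). With regions of at least 500 bp, line-only regions at the 4 genes fell from 160 to 79 (H82) and from 110 to 56 (H146). Narrow regions were dropped from both atlases there, so a region whose only overlapping partner was narrow then counted as line-only. With overlap of at least 50% of both regions needed to share, H146-only regions numbered 179. The palindrome with reversed arms gave no ratio. No paired analysis was possible because the files hold no values per sample, and leaving out a replicate was not possible for the same reason. Depth is unknown, so absence of a region is not absence of accessibility.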
